A study of Mus musculus with 4 samples.

Results

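The imprinted growth network genes are 10 mouse genes of which mainly the copy from 1 parent is read: Igf2, H19, Dlk1, Meg3, Plagl1, Peg3, Cdkn1c, Grb10, Mest and Nnat. They were found by gene symbol and make up 10 of the 23282 gene rows in the files. The set was chosen by name with the measured levels of these same libraries known, among them the drop of Nnat between the untreated and the exercised healthy muscle. Their levels and differences are therefore given as a description, with no test.

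Expression was measured in the gastrocnemius, a calf muscle, of CDF1 mice, a hybrid strain of BALB/c and DBA/2 parents. The study crossed exercise (E) with a tumor (T), and there was 1 library for each of the 4 groups. Normal control (E−T−) received neither, normal exercise (E+T−) ran at high intensity on a treadmill, cancer control (E−T+) carried a tumor and cancer exercise (E+T+) had both. Tumors were raised with CT26, a mouse colorectal carcinoma line, injected into the tail vein. The labels give postnatal day 28 as the age for each library and 10 mice a group, whereas the methods describe purchase of the mice at 4 weeks and later killing. Sequencing is described as being of 1 representative mouse per group, and whether animals were pooled is not settled. No group has a second library, and a difference between libraries cannot be told apart from a difference between animals. The fibre genes Acta1 and Ckm, which encode skeletal actin and muscle creatine kinase, had at least 125922 and 62137 reads in each library.

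Libraries were made by QuantSeq, which reads the 3′ ends of polyadenylated RNA, so counts do not depend on the length of the transcript. Reads on genes, as rebuilt from the deposited values, summed to 10647460 to 13226031 a library and fell on 14427 to 14830 genes. The sums are approximate, because abundant genes are not resolved to 1 read. Where 4 values follow each other without group names, they stand in the order E−T−, E+T−, E−T+, E+T+. Levels below are normalized read counts, that is, reads scaled by the authors to a common library size, and reads are the whole numbers rebuilt from them. Differences are between log2 values taken after adding 1 to the normalized reads, so those of low genes come out too small. A gene was called when it differed by at least 2-fold and its level reached 4 normalized reads in 1 or both libraries of the pair. Intervals are 95% Clopper-Pearson intervals of the ratio of reads and cover counting error only, not variation between mice.

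Imprinted genes carry a mark from the egg or the sperm that silences 1 parental copy. Those read from the paternal copy, such as Igf2, Dlk1, Peg3 and Mest, tend to promote growth before birth, and those read from the maternal copy, such as H19, Meg3, Cdkn1c and Grb10, tend to restrain it. Many of them are highest in fetal and newborn tissue and decline as growth slows, and skeletal muscle keeps a high level of H19. The data hold no parental alleles, so the copy from which the reads came was not measured.

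Normal control was the highest library for 9 of the 10 genes, and H19 was the exception, with its lowest level there. Over the 15485 genes that met the minimum in any library, normal control was the highest for 27.1%. All 10 genes met the minimum in each of the 4 comparisons. Without H19 the other 9 genes took 0.0276% of the reads of normal control and 0.0176% in normal exercise, against 0.0152% in the cancer control and 0.0145% in the cancer exercise library. With H19 the order was the reverse, and the 10 genes took 0.0819% of reads in normal control and 0.165% in cancer exercise. H19 supplied 66.3% of the 10 genes' reads in the normal control and 83.1% in the normal exercise library, against 86.6% in the cancer control and 91.2% in the cancer exercise library.

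**Figure D1:**
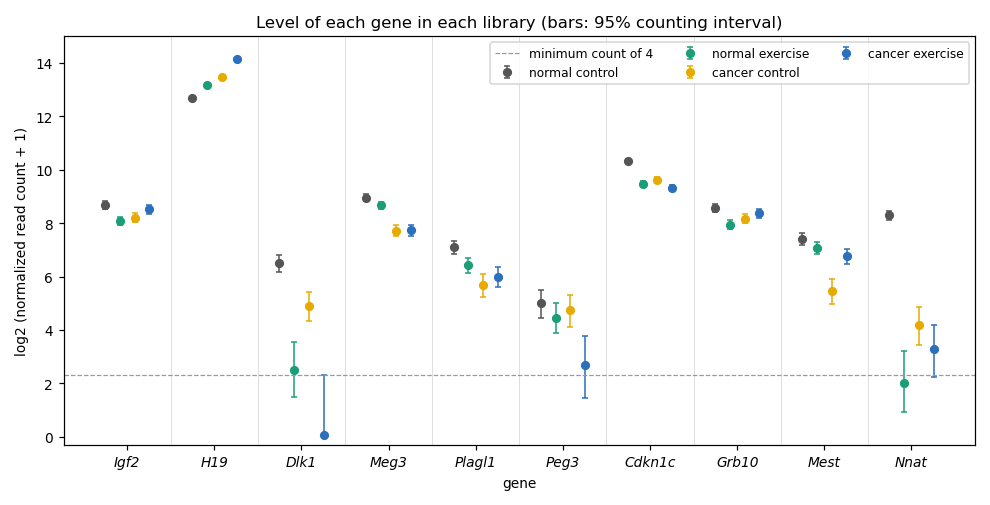
Level of the 10 genes on the log2 scale, with 1 added to the normalized reads, in the 4 libraries, with 95% counting intervals as bars and the minimum count of 4 as a dashed line. Normal control is the highest point for each gene but H19, which rises from 6507 in normal control to 17990.2 in cancer exercise, and Dlk1 and Nnat span the widest range.

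Igf2 and H19 are neighbours on chromosome 7 that share enhancers and an imprinting control region between them. Igf2 (ENSMUSG00000048583, mm10 chr7:142650766-142666816, minus strand) encodes a fetal growth factor that acts through the IGF1 receptor. H19 (ENSMUSG00000000031, chr7:142575529-142578143, minus strand) is a long noncoding RNA, and 72622 bases separate the annotated genes. The normalized read count of Igf2 was 409 in normal control and 272 in normal exercise, against 293 in the cancer control and 364 in the cancer exercise library, from 274 to 385 reads. Its levels lay within 0.59 of each other on the log2 scale and it was called in no comparison. Igf2 was 0.59 lower (log2) with exercise in healthy mice (interval −0.80 to −0.37) and higher by 0.31 with exercise in tumor-bearing mice (interval 0.08 to 0.55). With the tumor it was 0.48 lower in sedentary mice (interval −0.71 to −0.25) and 0.42 higher in exercised mice (interval 0.20 to 0.64). Normal control and cancer exercise did not differ in Igf2 beyond counting error (interval −0.39 to 0.04), nor did cancer control and normal exercise (interval −0.13 to 0.34).

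The normalized read count of H19 was 6507 in normal control and 9305 in normal exercise, against 11236 in the cancer control and 17990.2 in the cancer exercise library. Each of these levels was apart from the next beyond counting error, and normal control was the lowest and cancer exercise the highest. The reads behind them, 6118 to 16611, are approximate, because at such levels the deposited decimals do not resolve 1 read. H19 was 0.52 higher (log2) with exercise in healthy mice (interval 0.47 to 0.56), and 0.68 higher with exercise in tumor-bearing mice (interval 0.64 to 0.71). The tumor libraries were higher by 0.79 without exercise (interval 0.74 to 0.83) and by 0.95 with it (interval 0.92 to 0.99), just below the limit of 1. Cancer exercise against normal control, which combines exercise and tumor, gave 2.76-fold more H19 (log2 difference 1.47). The ratio of the neighbours is free of the scaling between libraries. There were 15.9 H19 reads per Igf2 read in normal control (interval 14.3 to 17.7) and 34.2 in normal exercise (30.7 to 38.2), against 38.3 in the cancer control (34.0 to 43.3) and 49.4 in the cancer exercise library (44.4 to 55.2). Normal control was apart from the other 3 libraries in this ratio, and normal exercise and cancer control overlapped.

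H19 holds the hairpin of miR-675, a microRNA cut from this transcript. Its mature strands are shown because H19 is the only 1 of the 10 genes that was highest in the exercised tumor library. They come from RefSeq (GRCm38.p6), lie on the minus strand at chr7:142577112-142577133 (5p) and chr7:142577078-142577099 (3p), and have the seed, bases 2 to 8, in capitals.
mmu-miR-675-5p: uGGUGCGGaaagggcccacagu
mmu-miR-675-3p: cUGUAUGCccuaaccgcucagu
The seeds differ. Mature microRNAs lack a poly(A) tail and are not read by this library method, so the level of miR-675 was not measured. RefSeq places 9 mature microRNAs inside 4 of the 10 genes (H19, Igf2, Meg3 and Mest), with 9 distinct seeds.

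Dlk1 and Meg3 form a second pair, on chromosome 12. Dlk1 (ENSMUSG00000040856, chr12:109452823-109463336, plus strand) encodes a transmembrane protein related to the Notch ligands that holds back fat cell formation and takes part in muscle growth and regeneration. Meg3 (ENSMUSG00000021268, chr12:109541001-109571726, plus strand) is a noncoding RNA of the maternal copy, 77664 bases further on. The normalized read count of Dlk1 was 89.1 in normal control (84 reads), 4.70 in normal exercise (6 reads) and 28.9 in cancer control (27 reads), and cancer exercise had 0 reads. The sedentary libraries were thus above the exercised ones with and without a tumor. With exercise Dlk1 was 15.8-fold lower in healthy mice (log2 difference −3.98, interval −5.69 to −3.02). In tumor-bearing mice it was 8.90-fold lower with the floor of 3 reads taken for the library without reads. The upper end of that interval was −2.76 on the log2 scale, a smaller drop than the floor gives. The tumor libraries were 3.01-fold lower without exercise (log2 difference −1.59, interval −2.31 to −0.99) and, by the same floor, 1.496-fold lower with it. The last difference rests on 6 reads against 0, and its interval reaches 0.18 above 0 on the log2 scale.

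The level of Meg3 was 492 in normal control and 408 in normal exercise, against 209 in the cancer control and 213 in the cancer exercise library. Here the split followed the tumor. Meg3 was 2.35-fold lower with the tumor in sedentary mice (log2 difference −1.23, interval −1.49 to −0.99) and 1.91-fold lower in exercised mice (log2 difference −0.93, interval −1.18 to −0.69), of which only the first passed the limit. Under total count scaling the second passed it too, at −1.09. Exercise went with 0.27 less on the log2 scale in healthy mice (interval −0.46 to −0.09). In tumor-bearing mice its difference was 0.03 (interval −0.26 to 0.32), and this is the only value of the 10 genes whose sign turned with the scaling, to −0.04 under total count. The number of Meg3 reads per Dlk1 read was 5.51 in normal control (interval 4.36 to 7.04) and 7.22 in cancer control (4.81 to 11.2), against 83.8 in normal exercise (38.2 to 230) and at least 52.9, the lower end of the interval, in cancer exercise. The sedentary libraries overlapped in this ratio and lay below the exercised ones.

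**Figure D2:**
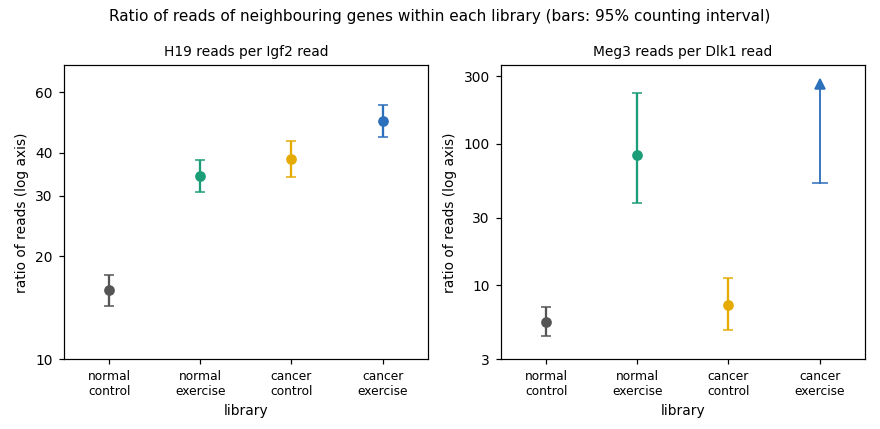
Reads of H19 per Igf2 read and of Meg3 per Dlk1 read in each library, on log axes, with 95% counting intervals as bars. The H19 ratio is lowest in normal control at 15.9 and highest in cancer exercise at 49.4, and the Meg3 ratio is high in the exercised libraries, where the arrow marks a lower limit of 52.9 because Dlk1 had 0 reads.

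The promoters of Dlk1 and Meg3 are printed because these neighbours moved apart between libraries, and that of Nnat because it had the largest change in the 4 comparisons. Each runs from 250 bases before to 50 after the RefSeq start (GRCm38.p6, plus strand), with CpG sites, which can carry the imprint's DNA methylation, in capitals. The windows are chr12:109452573-109452872 for Dlk1, chr12:109540746-109541045 for the first of the Meg3 starts and chr2:157559828-157560127 for Nnat.
Dlk1: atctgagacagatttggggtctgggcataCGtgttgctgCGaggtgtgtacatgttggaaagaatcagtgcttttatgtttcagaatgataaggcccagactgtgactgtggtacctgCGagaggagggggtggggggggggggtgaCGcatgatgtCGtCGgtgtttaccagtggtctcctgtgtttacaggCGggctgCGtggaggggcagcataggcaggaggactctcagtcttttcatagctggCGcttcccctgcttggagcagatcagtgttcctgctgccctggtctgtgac
Meg3: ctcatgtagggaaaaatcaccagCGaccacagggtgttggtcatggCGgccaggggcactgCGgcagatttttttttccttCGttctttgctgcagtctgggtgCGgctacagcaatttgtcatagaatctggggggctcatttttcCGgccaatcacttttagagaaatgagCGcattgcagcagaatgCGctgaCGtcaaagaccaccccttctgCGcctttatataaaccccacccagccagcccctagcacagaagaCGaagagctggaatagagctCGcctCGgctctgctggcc
Nnat: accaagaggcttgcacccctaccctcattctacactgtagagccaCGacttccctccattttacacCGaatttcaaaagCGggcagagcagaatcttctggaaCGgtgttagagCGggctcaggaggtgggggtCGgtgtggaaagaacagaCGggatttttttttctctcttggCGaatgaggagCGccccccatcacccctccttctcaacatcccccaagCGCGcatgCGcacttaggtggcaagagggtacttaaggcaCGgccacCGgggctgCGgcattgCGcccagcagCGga
There were 9 CpG sites in the window of Dlk1, 13 in that of Meg3 and 17 in that of Nnat, against a median of 7 over the promoters of 27025 genes. The TATA box letters TATAAA, searched on both strands, occurred in the Meg3 window and in no other window of the 8 genes with a RefSeq promoter, and in 14.2% of all promoters. Neither the letters CAGCTG of a muscle E-box nor GGGGCCCC, the core bound by the PLAGL1 factor, occurred in the 3 windows. GGGGCCCC was found in the Peg3 promoter alone among the 8 genes and in 1.058% of all promoters. Methylation and factor binding were not measured.

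Plagl1 and Peg3 encode zinc finger transcription factors of the paternal copies. Plagl1 (ENSMUSG00000019817, chr10:13060504-13131694, plus strand) is known as a regulator of other imprinted genes and of cell cycle arrest. Its normalized read count was 136 in normal control and 85.1 in normal exercise, against 50.4 in the cancer control and 62.9 in the cancer exercise library. Plagl1 was 2.67-fold lower with the tumor in sedentary mice (log2 difference −1.42, interval −1.95 to −0.94), and this was its only call in the 4 comparisons. Cancer exercise against normal control was also past the limit, at 2.15-fold lower (log2 difference −1.10, interval −1.59 to −0.66). The difference with the tumor in exercised mice was −0.43 (interval −0.93 to 0.04), and cancer exercise and cancer control did not differ beyond counting error (interval −0.26 to 0.91).

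Peg3 (ENSMUSG00000002265, chr7:6703892-6730431, minus strand) takes part in cell death and NF-kB signalling and marks some stem cells of adult tissue. It was a low gene, with 29 reads in the normal control and 26 in the normal exercise library, against 24 in the cancer control and 5 in the cancer exercise library, or normalized read counts of 30.8, 21.1, 25.7 and 5.48. The first 3 libraries did not differ beyond counting error, and cancer exercise stood below them. Peg3 was 4.12-fold lower than in cancer control (log2 difference −2.04, interval −3.99 to −0.83) and 3.41-fold lower than in normal exercise (log2 difference −1.77, interval −3.70 to −0.56). Usp29, which starts 146 bases from Peg3 on the other strand, had 3, 0, 17 and 3 reads.

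Cdkn1c and Grb10 are brakes on growth read mainly from the maternal copy in most tissues. Cdkn1c (ENSMUSG00000037664, chr7:143458339-143461050, minus strand) encodes p57, an inhibitor of cyclin dependent kinases that helps muscle precursors leave the cell cycle. Its normalized read count was 1292 in normal control and 714 in normal exercise, against 785 in the cancer control and 635 in the cancer exercise library. Cdkn1c missed the 2-fold limit in each of the 4 comparisons, with its largest difference at −0.85 for exercise in healthy mice (interval −0.98 to −0.73) and −0.72 for the tumor in sedentary mice (interval −0.85 to −0.58). Between cancer exercise and normal control, which differ in exercise and tumor together, it was 2.03-fold lower (log2 difference −1.02, interval −1.17 to −0.88).

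Grb10 (ENSMUSG00000020176, chr11:11930508-12038683, minus strand) encodes an adaptor that binds insulin and IGF1 receptors and dampens their signal. Its normalized read count was 382 in normal control and 245 in normal exercise, against 286 in the cancer control and 330 in the cancer exercise library, and it was called in no comparison. Grb10 was lower with exercise in healthy mice (log2 difference −0.64, interval −0.87 to −0.42). With the tumor it was lower in sedentary mice (log2 difference −0.41, interval −0.65 to −0.18) and higher in exercised mice (log2 difference 0.43, interval 0.20 to 0.67). Each neighbour in the order of its levels was within counting error of the next. The order of the libraries was that of Igf2. Across the libraries Grb10 and Igf2 were the closest pair of the 10 genes, with a root mean square difference of 0.04 between their log2 values after each was centred on its own mean. Meg3 and Plagl1 came next at 0.19. These are likenesses over 4 libraries that share scaling factors, and such small swings are common, since 1343 of the 12055 genes compared lay within 0.25 of Igf2.

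Mest and Nnat encode membrane proteins and both overlap a protein-coding gene of the opposite strand. Igf2 also shares 7124 bases with an antisense gene, Igf2os, whose part in the Igf2 reads was not tested. Mest (ENSMUSG00000051855, chr6:30723547-30748465, plus strand) belongs to the alpha/beta hydrolases and is linked to growth and to the enlargement of fat cells. Its normalized read count was 168 in normal control and 133 in normal exercise, against 42.9 in the cancer control and 107 in the cancer exercise library. Cancer control stood alone at the low end. Mest was 3.85-fold lower with the tumor in sedentary mice (log2 difference −1.95, interval −2.51 to −1.46) and 2.47-fold higher with exercise in tumor-bearing mice (log2 difference 1.30, interval 0.78 to 1.89).

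The values of Mest cannot be told apart from those of Copg2, a coat protein gene on the opposite strand. The genes share 912 bases at their 3′ ends, all exonic in GENCODE M21, and 3′ reads fall there. Mest had 158, 164, 40 and 99 reads and Copg2 163, 166, 44 and 95 reads. The ratio of Mest to Copg2 reads was between 0.909 and 1.04 and each interval held 1. How strand was treated in counting is not given in the sources used here. The calls for Mest are therefore calls for Mest or Copg2.

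Nnat (ENSMUSG00000067786, chr2:157560078-157562522, plus strand) encodes neuronatin, a small protein of the endoplasmic reticulum that resembles regulators of the calcium pump SERCA and is best known from brain, pancreatic islets and fat. The gene lies within Blcap, on the other strand, and shares no exonic base with it. Reads of Nnat numbered 295 in normal control, 4 in normal exercise, 16 in the cancer control and 8 in the cancer exercise library, or normalized read counts of 314, 3.09, 17.2 and 8.74. Normal control thus held nearly all of the Nnat reads, 295 of 323. Nnat was 77.0-fold lower with exercise in healthy mice (log2 difference −6.27, interval −8.48 to −5.22) and 17.3-fold lower with the tumor in sedentary mice (log2 difference −4.11, interval −5.02 to −3.47). Only 0.0138% of the genes tested fell further than Nnat in the first of these comparisons, the contrast known when the set was chosen.

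The 3 libraries other than normal control had 16 Nnat reads or fewer. Cancer control was 4.45-fold above normal exercise (log2 difference 2.15, interval 0.77 to 4.44), a pair that differs in exercise and tumor together. Cancer exercise and cancer control gave −0.90 on the log2 scale (interval −2.42 to 0.32). Cancer exercise was called higher than normal exercise at 2.38-fold, but on 8 reads against 4 and with an interval of −0.48 to 3.60, and with a pseudocount of 4 in place of 1 the difference fell below the limit, at 0.85. The host gene Blcap, read from both copies in most tissues, had 483, 448, 465 and 475 reads, and was called in no comparison. Its normalized read counts were 514, 363, 498 and 515, lowest in normal exercise, with a log2 difference of −0.50 for exercise in healthy mice. The number of Nnat reads per Blcap read was 0.611 in normal control (interval 0.527 to 0.707) and 0.00893 in normal exercise, against 0.0344 in the cancer control and 0.0168 in the cancer exercise library. The high Nnat of normal control is a value of 1 library.

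**Figure D3:**
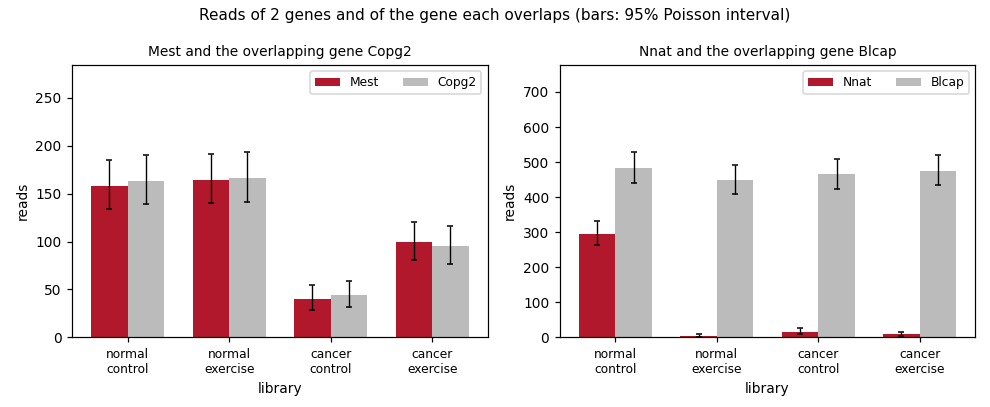
Reads of Mest and Copg2 (left) and of Nnat and Blcap (right) in each library, as bars from 0 with 95% Poisson intervals. Mest and Copg2 have near equal reads in every library, with 40 and 44 in cancer control. Nnat has 295 reads in normal control and 4 to 16 in the others, beside 448 to 483 reads of Blcap, all not scaled between libraries.

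The first comparison asked what exercise changes in healthy muscle. Of the 10 genes, 9 were lower and H19 was higher in normal exercise than in normal control. Nnat and Dlk1 were called lower and no gene was called higher, beside 21.5% of 14518 genes called in either direction, 9.44% higher and 12.1% lower. The median log2 difference of the 10 genes was −0.61, and that of all genes tested was −0.01. Another 6 genes, Cdkn1c, Plagl1, Grb10, Igf2, Peg3 and Mest, lay between −0.85 and −0.34, and Meg3 was at −0.27. Under total count scaling the median of all genes moved to 0.15, and the differences of all 10 genes kept their signs.

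The second comparison addressed the tumor in sedentary muscle. Again 9 of the 10 genes were lower and H19 was higher, now in cancer control against normal control. Nnat, Mest, Dlk1, Plagl1 and Meg3 were called lower and no gene higher, beside 45.1% of 14818 genes called, 20.9% higher and 24.2% lower. The median was −0.98 against −0.04 for all genes. This comparison and the first share the normal control library, so a level that is high in that library alone enters both. Their shared signs are not separate evidence.

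The third comparison, exercise in tumor-bearing mice, set cancer exercise against cancer control. The genes moved in both directions, 6 above and 4 below 0, with a median of 0.12 against 0.01 for all genes. Mest was called higher and Dlk1 and Peg3 lower, beside 30.6% of 14491 genes called, 15.6% higher and 15.1% lower. Igf2, Plagl1, Grb10 and H19 were higher by 0.21 to 0.68 without reaching the limit.

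The fourth comparison asked what the tumor changes in exercised muscle. Here 4 genes were above and 6 below 0 in cancer exercise against normal exercise, with a median of −0.24 against −0.03 for all genes. Nnat was called higher and Dlk1 and Peg3 lower, beside 30.3% of 14470 genes called, 13.9% higher and 16.3% lower. Each of the 3 calls has a library with 8 reads or fewer behind it. Under total count scaling the median of all genes moved to −0.18, no sign among the 10 genes changed, and Meg3 was called lower as well.

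**Figure D4:**
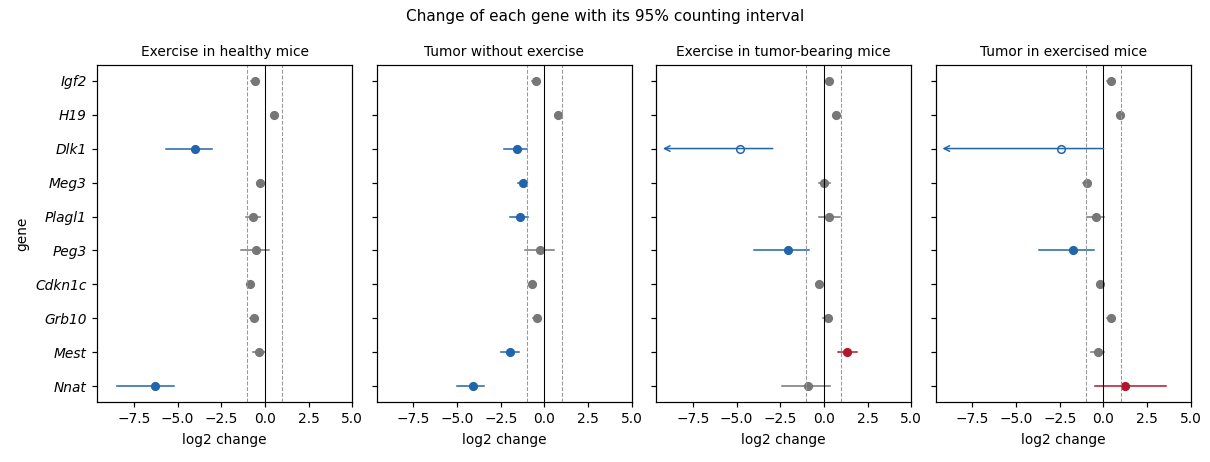
Log2 difference of the 10 genes in the 4 comparisons, with 95% counting intervals as lines and the 2-fold limits dashed. Red points were called higher, blue points lower and grey points were not called, and the open points with arrows mark Dlk1 where cancer exercise had 0 reads. The first pair of panels has 9 of 10 points left of 0, and the others have points on both sides.

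**Figure D5:**
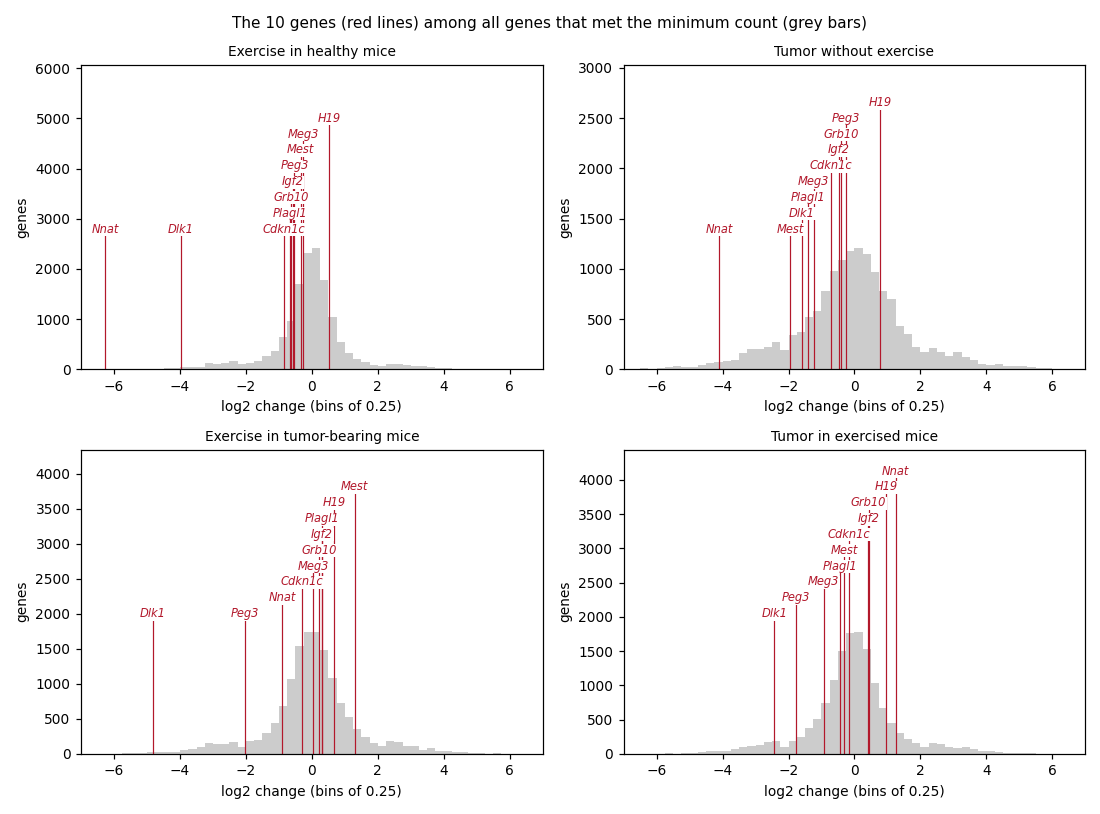
The 10 genes as red lines on the distribution of log2 differences of all genes that met the minimum count, in bins of 0.25, for the 4 comparisons. In healthy mice Nnat at −6.27 and Dlk1 at −3.98 lie in the lower tail, while the other 8 genes lie within the bulk, and in tumor-bearing and in exercised mice Dlk1 stands where the added 1 puts it, since cancer exercise had 0 reads.

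The genes whose levels followed the members most closely were searched among 12055 genes whose levels averaged 16 or more. Nnat had none within a root mean square difference of 0.25, and its nearest was Cyp2f2, a cytochrome P450, at 0.86, with 223, 13, 35 and 32 reads. Tmeff1 and Pck1 followed at 1.13 and 1.25, both far outside that limit. Pck1, a fat and liver enzyme of glyceroneogenesis and gluconeogenesis, had 289, 37, 97 and 73 reads. Dlk1 had none within 0.25 either, and its nearest was Sez6 at 0.42, with 42, 4, 28 and 0 reads. Peg3 had 14 within 0.25, led by Sik2, a kinase gene, with 33, 26, 22 and 5 reads. H19 had 232, and the third of its closest was Chrna1, the alpha subunit of the muscle acetylcholine receptor, with 98, 205, 181 and 323 reads. The patterns of Meg3 and Plagl1 were shared by 538 and 521 genes within that limit, those of Cdkn1c, Grb10 and Mest by 419, 1274 and 353.

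Other imprinted genes were examined as a list of 54, of which 52 have a row in the files and 45 had reads. In healthy mice with exercise 2 were called higher and 6 lower of 38 tested. With the tumor in sedentary mice 10 were called higher and 10 lower of 41, with exercise in tumor-bearing mice 6 and 5 of 41, and with the tumor in exercised mice 8 and 5 of 38. The list medians were −0.32, −0.25, 0.07 and −0.24. These calls made up 21.1%, 48.8%, 26.8% and 34.2% of the list genes tested, beside 21.5%, 45.1%, 30.6% and 30.3% of all genes tested. The list holds Copg2, whose reads cannot be told apart from those of Mest, and the overlapping genes Snrpn and Snurf. There were 0.978 to 1.01 Snrpn reads per Snurf read over the libraries. Copg2, Snrpn and Snurf were called lower with the tumor in sedentary mice and higher with exercise in tumor-bearing mice. They may not be separate calls. Rian, a noncoding RNA that follows Meg3 on the same strand, had 71, 35, 11 and 39 reads. Unlike Meg3, Rian differed with exercise in tumor-bearing mice (log2 difference 1.75, interval 0.85 to 2.96). Ndn, a paternal gene linked to muscle regeneration, had 466, 346, 54 and 91 reads and was called lower with the tumor in both settings. Peg10, a gene derived from a retrotransposon, had 4, 12, 45 and 53 reads and was called higher with the tumor in both settings. Igf2r, the receptor that clears IGF2, had 337, 384, 289 and 298 reads and was called in none.

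In the IGF pathway genes other than Igf2 were called in each comparison. Of 26 such genes, 3 were called higher and 4 lower of 22 tested with exercise in healthy mice, 11 and 5 of 25 with the tumor in sedentary mice, 1 and 7 of 25 with exercise in tumor-bearing mice, and 8 and 5 of 24 with the tumor in exercised mice. The shares called were 31.8%, 64.0%, 32.0% and 54.2%, beside 21.5%, 45.1%, 30.6% and 30.3% of all genes, so the third was near the background. Igf1, the postnatal growth factor of the family, had 2134 reads in the normal control and 1081 in the normal exercise library, against 936 in the cancer control and 1188 in the cancer exercise library. It was called lower after exercise in healthy mice (log2 difference −1.37, interval −1.48 to −1.27) as well as with the tumor in sedentary mice (log2 difference −1.18, interval −1.29 to −1.07). Its receptor Igf1r was called higher with the tumor in sedentary mice, with 265, 383, 723 and 389 reads. Of the binding proteins, which hold IGF1 and IGF2 in the blood and matrix, some differed widely and others little. Igfbp1 had 0, 0, 311 and 5 reads, Igfbp3 311, 266, 3570 and 1352, and Igfbp5 6960, 6232, 277 and 391, whereas Igfbp4 had 3352, 3669, 3533 and 3486. Igfbp3 was higher and Igfbp5 lower in the tumor libraries with and without exercise. Grb14, an adaptor of the Grb10 family, had 184, 79, 34 and 27 reads and was called lower in 3 of the 4 comparisons, whereas Grb10 was called in none.

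The genes around the brakes and factors were counted in the same way. Among 18 cell cycle genes related to Cdkn1c, 0, 3, 2 and 3 were called higher and 2, 3, 2 and 1 lower of 17 in the 4 comparisons, in the order used above. These are 11.8%, 35.3%, 23.5% and 23.5% of the genes tested, each below the share over all genes (21.5%, 45.1%, 30.6% and 30.3%). Cdkn1a, which encodes the related inhibitor p21, had 380, 336, 8029 and 3386 reads, a rise with the tumor of 4.41 on the log2 scale in sedentary mice (interval 4.26 to 4.56) beside the −0.72 of Cdkn1c. Cdkn1b, the third inhibitor of the family, had 1598, 2059, 2345 and 2135 reads and was called in none. Of the Plagl1 family only Plagl2 could be tested, with 29, 21, 1 and 16 reads. Plag1 had 4 reads in normal exercise and 0 elsewhere, and Zim1, a neighbour of Peg3, had 0 reads in all.

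Notch genes, set beside Dlk1, were called higher in 2, 0, 0 and 0 and lower in 0, 2, 1 and 6 cases of 17, 16, 16 and 17 tested. The shares called, 11.8%, 12.5%, 6.25% and 35.3%, stand beside 21.5%, 45.1%, 30.6% and 30.3% of all genes. Dlk2, the closest relative of Dlk1, had 6, 32, 6 and 9 reads and was called higher with exercise in healthy mice, where Dlk1 was lower. The Notch target Hes1 had 502, 1068, 389 and 198 reads. Of the calcium pump genes, set beside Nnat, 6 were tested. Sln, the pump inhibitor sarcolipin, had 43, 171, 177 and 951 reads and was called higher in each of the 4 comparisons. Mrln, the pump inhibitor myoregulin, had 4721, 2614, 495 and 942 reads, lowest with the tumor, and Atp2a1, the fast fibre pump itself, had between 88114 and 122734 reads and was called in none. Among 13 genes of muscle precursor cells with a row in the files, 1, 3, 4 and 2 were called higher and 3, 5, 2 and 2 lower, or 30.8%, 61.5%, 50% and 30.8% of those tested beside the same shares of all genes. Pax7, the marker of satellite cells, had 23, 27, 2 and 0 reads, and Myod1 had 288, 356, 20 and 197. Both were called lower with the tumor in sedentary mice, whereas Myog, with 72, 215, 192 and 171 reads, was called higher there.

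Markers of other cells in the muscle also differed between the libraries, not all in the same direction. In a bulk sample fewer cells of a type and less RNA per cell cannot be told apart. In normal exercise, where Nnat was lowest and Dlk1 second lowest, 4 of 8 adipocyte markers, 4 of 8 markers of fibro-adipogenic progenitors and 3 of 6 tenocyte markers were called lower than in normal control and none higher, beside 12.1% of all genes called lower. The log2 differences of the summed counts were −0.84, −0.65 and −1.03. In the same comparison the Schwann cell and nerve markers summed to −0.79 and the endothelial markers to 0.42, with none called in either list. In cancer control all 8 adipocyte markers, 5 of the progenitor markers and all 6 tenocyte markers were called lower, beside 24.2% of all genes, and the sums differed by −1.61, −0.87 and −2.72. Dcn was most of the progenitor sum, at 57888 of 70036 in normal control and 35363 of 38196 in cancer control. The median log2 difference of the 8 progenitor markers was −2.78. Adipoq, the fat cell hormone adiponectin, had 1823, 929, 564 and 1036 reads, and Lep, the hormone leptin, had 67, 12, 0 and 0. Summed adipocyte counts ranged from 12667 to 38587 over the libraries. The part of these cells in the levels of the 10 genes was not tested.

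With exercise in tumor-bearing mice 5 of 7 tested adipocyte markers were called higher (sum 1.08 on the log2 scale), while Dlk1 and Peg3 were lower, and 5 of 7 Schwann cell and nerve markers were called lower (sum −1.51). Over all genes tested in this comparison, 15.6% were called higher and 15.1% lower. The 8 muscle fibre markers summed to −0.40 with exercise in healthy mice, whereas their sum was −1.01 with the tumor in sedentary mice. With that tumor 1 of the 8 was called higher and 4 lower, beside 20.9% and 24.2% of all genes. The normalized read count of Pvalb was 246119 in normal control and 13540 in cancer control, and that of Myh1 was 7701 and 18990. Endothelial markers changed little in sum, by 0.03 to 0.42. With exercise in healthy mice all 8 were higher, none called, with a median of 0.40. Cldn5 was called higher with the tumor in sedentary mice, Esam higher with exercise in tumor-bearing mice and Kdr lower with the tumor in exercised mice. Each was 12.5% of the list, beside 45.1%, 30.6% and 30.3% of all genes. Red cell markers summed to −2.24 with exercise in healthy mice, but to 3.25 with the tumor in exercised mice. Macrophage markers summed to −0.02, 0.77, −0.22 and 0.58 in the 4 comparisons, and satellite cell markers to 0.16, 1.27, −0.64 and 0.47. Sdc4, a surface proteoglycan that other cells also carry, was most of the satellite cell sum only in the tumor libraries. It had 148, 232, 679 and 363 reads. Its normalized read count was 157.5 of a sum of 468 in normal control and 727 of 1128 in cancer control. The defining markers Pax7 and Myf5, the latter with 39, 18, 6 and 31 reads, were called lower with the tumor in sedentary mice, where the satellite cell sum was higher. Sdc4 was called higher there, and Cdh15, Chrdl2 and Vcam1 were higher without being called. Calcr had too few reads to be tested. The median log2 difference of the tested markers was 0.48. Neuroendocrine markers, of interest beside Nnat, were near 0, with 11 reads at most for any of the 7 genes in any library, and summed normalized read counts of 21.1 in normal control and 13.03 in normal exercise, against 2.26 in the cancer control and 19.3 in the cancer exercise library. Chga had 0, 0, 0 and 3 reads, Chgb 2, 0, 0 and 1, and Scg2 0, 0, 1 and 2. Syp had 7, 4, 0 and 1 reads and Snap25 3, 3, 1 and 11. Pcsk1 had 7, 9, 0 and 0 reads and Pcsk2 1, 0, 0 and 0.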

How the data were processed

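Gastrocnemius RNA of 4 groups of mice was sequenced with the QuantSeq 3′ kit, 1 library a group, and groups were taken from the sample titles. Per the methods, the authors used Bowtie2 for alignment, bedtools for gene counts and edgeR for a quantile normalization; the submitters' processing notes name mm10, and the annotation, strand and duplicate handling are not given in the sources used here. What the authors deposited is 1 log2 value for each of 23282 gene rows, taken after adding 1 to the normalized reads.

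The plan assumed read counts could be recovered. A model of the quantile adjustment with 1 factor a library and a dispersion of 0.339 reproduced 100% of the log2 values within 0.0006, and from 94.9% to 96.2% of values per library were tied to 1 read count. Differences were taken on the deposited scale (pseudocount 1), and a gene was called at 2-fold or more with a normalized read count of 4 or more in at least 1 library. With 1 library a group no p-value was computed. Intervals are 95% Clopper-Pearson (ratios) or exact Poisson (levels) and cover counting error only, since no molecular identifiers are mentioned. The rebuilt reads on genes summed to 10647460 to 13226031 a library. The floor used for genes without reads, 3 reads, was 2.27e-05% to 2.82e-05% of that sum.

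The members, gene lists, thresholds and alternatives were chosen with earlier results of these data known. Genes named beyond the members are those of the rule set with the lists, that is, up to 5 of each list with the largest changes and a fixed set of neighbours and relatives, plus the 3 genes nearest in pattern to each member. Marker genes, Igf1's binding proteins and others given only by reads were named from the lists after their values were seen, and Mirg of the fixed set was not analysed here. Positions are from GENCODE M21 (mm10) and sequences from RefSeq (GRCm38.p6); 8 of the 10 genes matched a promoter there. Python 3.11.15, numpy 2.4.6, pandas 2.3.3, scipy 1.17.1 and matplotlib 3.10.9 were used. Alternatives tried were scaling by TMM, by total count or by the median of ratios, a pseudocount of 0.25 or 4, other minimums and fold limits, thinned reads, and calls only where the interval lay beyond 2-fold.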

Additional observations from a re-analysis of the deposited data

Results flagged for a closer look

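The tumor difference of Nnat went opposite ways without and with exercise, at −4.11 and 1.253 on the log2 scale, 5.36 apart. Both passed the 2-fold limit, the second on 8 reads against 4 with an interval of −0.48 to 3.60. The difference between the differences was not tested, because each group had 1 library. The first difference rests on the 295 Nnat reads of normal control, which the second does not use.

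Among genes set beside the 10, Rian, the noncoding RNA after Meg3, was lower with exercise in healthy mice and higher in tumor-bearing mice, at −1.38 and 1.75, 3.14 apart. Igfals, a carrier of circulating IGFs, gave −1.78 and 3.22, 4.99 apart, on 8 reads or fewer in 3 of the libraries. Cxcr4, a chemokine receptor, gave −1.18 and 1.19, 2.37 apart. Myf5, a muscle precursor factor, gave −1.45 and 2.21 for exercise and −2.50 and 1.16 for the tumor, 3.66 apart in each case. Pappa2, a protease of IGF binding proteins, gave 3.83 and −3.49 for exercise and 5.12 and −2.20 for the tumor, a gap of −7.32 in each case, with 0 reads in E−T−, 17 in E+T−, 33 in E−T+ and 2 in E+T+. The 2 contrasts of a gene use the same 4 libraries, so their gaps are equal by construction. These opposite signs were not tested either.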

How the results depend on the processing

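Of the 52 counts of called members under the alternatives, 41 stayed within 1.5 times the main count and 11 did not. In healthy mice with exercise the 2 calls became 1 with a minimum of 4 in both libraries and 6 at a fold limit of 1.5. The 5 calls for the tumor in sedentary mice became 1 at a fold limit of 4 and 2 where the counting interval had to lie beyond 2-fold. The 3 calls for exercise in tumor-bearing mice became 5 at a fold limit of 1.5 and 1 by the interval. The 3 calls for the tumor in exercised mice became 1 with a minimum of 16, 1 with a minimum of 4 in both libraries, 1 at a fold limit of 4, 5 at a fold limit of 1.5 and 0 by the interval. They also became 4 under total count scaling, with Meg3 at −1.09, and 2 with a pseudocount of 4, without Nnat at 0.85. Over all genes 4486 were called under that scaling and 3916 with that pseudocount, against 4378 in the main setting. The share of all genes called was not computed for the other minimums, fold limits or the interval rule. Counts of members under those settings therefore have no background beside them. The changes in the counts follow from how each setting is built. Leaving out Mest, an alternative added after the data were seen, gave counts within 1.5 times of the main ones. Of 240 single values 234 moved by no more than their counting error and 6 by more, all under total count scaling, for H19 in the 4 comparisons and Cdkn1c in 2. Of 140 list medians 4 turned sign, 3 of them under total count scaling: Notch genes with the tumor in sedentary mice from −0.07 to 0.004, muscle precursor genes with exercise in tumor-bearing mice from 0.03 to −0.04 (and to −0.001 by median of ratios), and Plagl2, the only gene tested of its family, with the tumor in exercised mice from 0.025 to −0.12. A pseudocount of 4 moved Plagl2 from −3.90 to −2.76 with the tumor in sedentary mice and from 3.11 to 2.06 with exercise in tumor-bearing mice. Normal control stayed the highest library for 9 of the 10 genes under each scaling and pseudocount tried and with thinned reads. No paired analysis was possible because each group has 1 library. Depth limits Dlk1, Peg3 and Nnat, which had under 10 reads in at least 1 library.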
